A study of Mus musculus with 12 samples.

Results

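Crym, Gprc5d and Pthlh are 3 genes with signalling roles that are also known from hair follicles, described here in mouse skin as 3 of the 7902 genes in the deposited tables. They were taken by symbol and had been chosen by earlier results of these same libraries, for Crym and Gprc5d their rise in Model over Ctrl, so their difference between model and control skin, and that of the hair keratins Krt31 to Krt36 set beside them, is given as a description without a test. The 12 skin libraries fall into 3 groups of 4 that the labels call Ctrl, Model and M+NSPCC1. Ctrl is control skin, Model is skin aged by D-galactose together with UVA/B irradiation, and M+NSPCC1 is the same ageing model given NSPCC1, a grape seed extract. The sources used here do not give strain, genotype, age, sex, body site, dose or duration. The labels do not say that each library is a separate animal, so the spread behind each p-value is that of these samples and may be technical in part.

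Pthlh encodes parathyroid hormone-related protein, a secreted ligand that acts locally on Pth1r, a G protein-coupled receptor linked through Gnas to adenylate cyclase and protein kinase A. In skin it is made by keratinocytes and is known for its part in hair cycle timing. Gprc5d is an orphan receptor of the retinoic acid-inducible GPRC5 family, known from the keratinizing cells of the hair shaft and from plasma cells. Crym encodes mu-crystallin, a cytosolic protein that binds thyroid hormone and also acts as a ketimine reductase. The hair keratins are the intermediate filament proteins of the hair shaft, made in the growing phase of the hair cycle.

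All 3 genes lie on the minus strand and overlap no other annotated gene in GRCm38.p6, the assembly also called mm10. Crym (gene ID 12971) spans chr7:120186380-120201989, Gprc5d (gene ID 93746) chr6:135105991-135118283 and Pthlh (gene ID 19227) chr6:147252109-147264013. RefSeq promoter sequence was at hand for 2 of the 3 members, and the 250 bases before each start are shown because the members were high in the same libraries. They are chr6:135118284-135118533 for Gprc5d and chr6:147264014-147264263 for Pthlh, each printed 5′ to 3′ in the direction of its gene. Capitals mark matches to 1 of the 3 motifs searched on both strands: TATAAA, the core promoter motif bound by the TATA-binding protein; CTTTGNT, the core motif of TCF and LEF factors; and AGGTCA, an element of nuclear receptors.
Gprc5d: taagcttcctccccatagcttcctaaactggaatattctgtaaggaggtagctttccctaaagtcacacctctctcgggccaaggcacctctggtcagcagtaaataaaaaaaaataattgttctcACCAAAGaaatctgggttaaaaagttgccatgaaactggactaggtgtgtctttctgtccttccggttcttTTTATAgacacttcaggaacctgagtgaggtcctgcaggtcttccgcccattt
Pthlh: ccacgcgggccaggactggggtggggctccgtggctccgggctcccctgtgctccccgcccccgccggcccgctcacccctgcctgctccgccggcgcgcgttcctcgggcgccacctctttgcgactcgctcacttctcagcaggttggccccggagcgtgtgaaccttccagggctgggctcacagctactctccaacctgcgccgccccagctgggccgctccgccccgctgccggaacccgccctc

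The promoters of Gprc5d and Pthlh differ in base composition. That of Gprc5d has a GC content of 44% and 3 CG dinucleotides. That of Pthlh has a GC content of 75.2% and 26 CG dinucleotides, and 96.1% of the 32851 RefSeq promoters have a lower GC content; the medians over these are 52.4% and 6. In Gprc5d, TATAAA lies on the opposite strand 53 bases before the start and CTTTGNT on the opposite strand 124 bases before it, so both appear above as their reverse complements. TATAAA is found in 12.4% of all promoters of this length, CTTTGNT in 16% and AGGTCA in 14%. The Pthlh window holds none of these letters. Among the 5 of 7 hair keratins with a promoter in the table, TATAAA occurs in Krt31, Krt32, Krt33b and Krt34 and not in Krt36. Unlike in Gprc5d, it lies there on the strand of the gene. It is 29 bases before the start in Krt31, 88 and 29 in Krt32, 47 in Krt33b and 31 in Krt34.

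Summed estimated counts ran from 9717338 to 10952623 per library. Cell type markers differed between the groups along with the members, and their part in these differences was not tested; in bulk tissue, more cells of a type and more RNA per cell cannot be told apart. CPM here is a share of the TMM-adjusted total of the 7902 deposited genes, not of the whole library, in the usual scale of CPM. The 8 inner root sheath markers in the tables (of 9) summed to 7.4 to 315 CPM in Ctrl, with the highest value in Ctrl 02. They summed to 37971 to 54301 CPM in Model and to 26719 to 46370 in M+NSPCC1. The 12 skeletal muscle markers (of 12) summed to 73320 to 78403 CPM in Ctrl, 4224 to 13760 in Model and 9634 to 14607 in M+NSPCC1. The 6 dermal fibroblast markers (of 9) summed to 12699 to 15471 CPM, 4041 to 10208 and 5724 to 7615. Of 11 plasma cell markers 4 were in the tables, and they went in opposite directions. Jchain had 0.322 to 0.994 CPM in Ctrl and 3.22 to 15 in Model, and Sdc1, which keratinocytes also make, had 353 to 394 and 1129 to 1364; both rose in edgeR (log2 fold changes of 3.96 and 1.74). Tnfrsf17 had 1.83 to 4.64 CPM in Ctrl and 0.373 to 1.69 in Model and fell (-1.85), and Mzb1, not tested, had 0.537 to 1.62 and 0 to 0.373.

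All 3 members were low in control skin and high in every library of the ageing model, with or without the extract. Crym, the thyroid hormone binding protein, had estimated counts of 23, 51, 42 and 31 in Ctrl 01 to 04. It had 5511, 6180, 4240 and 6062 in Model 01 to 04, and 2954, 4583, 5317 and 5019 in M+NSPCC1 01 to 04. In CPM that is 4.01 ± 1.35 in Ctrl, 520 ± 69.9 in Model and 406 ± 93.7 with the extract (SD, n = 4 in each group). The Ctrl libraries lie far below the other 8. The Model range of 421 to 573 overlaps the M+NSPCC1 range of 271 to 484, where M+NSPCC1 01 is lowest. The fitted log2 fold change was 7.02 (SE 0.28) for Model over Ctrl and 6.66 (SE 0.27) for M+NSPCC1 over Ctrl, which share the Ctrl libraries.

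Gprc5d, the orphan receptor, was close to absent from control skin. Its estimated counts were 1, 12, 0 and 3 in Ctrl 01 to 04, and the 0 in Ctrl 03 allows up to 0.322 CPM (3 counts). They were 6704, 10200, 6002 and 8420 in Model 01 to 04, and 2884, 5149, 6158 and 5107 in M+NSPCC1 01 to 04. The level was 0.44 ± 0.605 CPM in Ctrl, 740 ± 159 CPM in Model and 439 ± 125 CPM with the extract (SD, n = 4 in each group). All Model libraries (595 to 945 CPM) lie above all M+NSPCC1 libraries (264 to 561 CPM). The fitted log2 fold change over Ctrl was 10.69 (SE 0.54) in Model and 9.93 (SE 0.53) in M+NSPCC1. These folds rest on the few Ctrl counts: most of them are in Ctrl 02, and without that library the values are 12.20 and 11.45.

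Pthlh, the ligand, was the least abundant of the 3 in the ageing model. Its estimated counts were 34, 27, 29 and 22 in Ctrl 01 to 04. They were 284, 298, 142 and 318 in Model 01 to 04, and 135, 139, 159 and 159 in M+NSPCC1 01 to 04. The level was 3.06 ± 0.568 CPM in Ctrl, 24.6 ± 7.07 CPM in Model and 13.5 ± 0.996 CPM with the extract (SD, n = 4 in each group). Model 01, 02 and 04 stand between 26.9 and 29.6 CPM, while Model 03, at 14.1 CPM, lies within the M+NSPCC1 range of 12.4 to 14.5 CPM. The fitted log2 fold change over Ctrl was 3.0 (SE 0.25) in Model and 2.13 (SE 0.24) in M+NSPCC1.

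**Figure D1:**
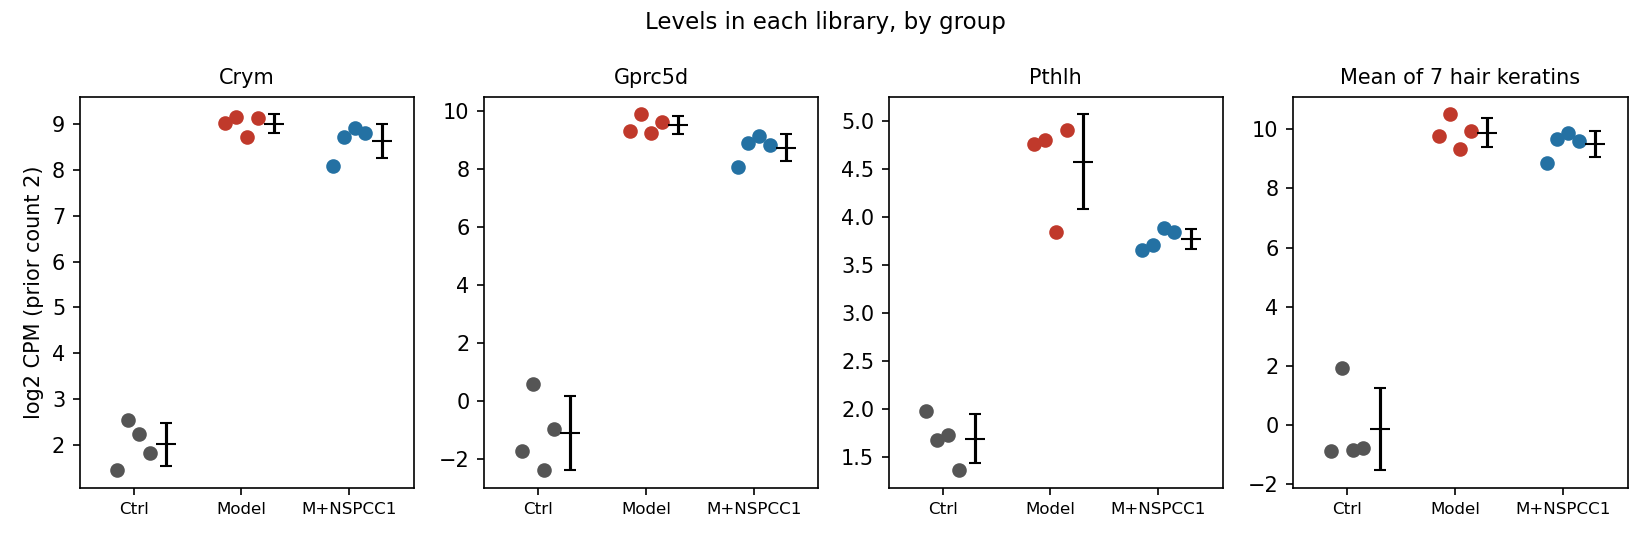
Level of Crym, Gprc5d and Pthlh and the mean of the 7 hair keratins, as log2 CPM with a prior count of 2 (vertical axes, each with its own range, none starting at 0), in each library of the 3 groups; points are libraries and bars the mean ± SD (n = 4). The 4 Ctrl libraries lie below the other 8 in every panel, and for Pthlh 1 Model library sits at the level of the M+NSPCC1 libraries.

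Levels of different genes can be compared only per transcript length, for which the deposited FPKM values serve. On that scale Gprc5d had the highest mean in Model (433 FPKM), followed by Crym (326 FPKM) and Pthlh (13 FPKM). In M+NSPCC1 the means of Gprc5d (264 FPKM) and Crym (261 FPKM) lay within each other's SD of 79.2 and 64.4, and Pthlh had 7.25 FPKM. In Ctrl the means were 2.21 FPKM for Crym, 1.42 for Pthlh and 0.225 for Gprc5d, with Crym and Pthlh overlapping in range (1.41 to 3.12 and 1.12 to 1.75). Gprc5d thus went from the lowest of the 3 in Ctrl to the highest in Model. Gprc5d has 2 transcript rows in the tables, and the smaller held 13.6% ± 0.677 of its estimated count in Model and 14.2% ± 1.36 in M+NSPCC1 (SD, n = 4 each), a difference within the spread. Crym and Pthlh have 1 row each.

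The extract-treated model skin can be compared with the untreated model in the same fit, and this is the only comparison in which the members carry a test here. Crym and Gprc5d were chosen by their rise in these same Model libraries, which by itself favours values below 0 here. Their test is therefore not independent evidence. The fitted values of all 3 members were below 0 (lower in M+NSPCC1), and none passed the edgeR quasi-likelihood test after Benjamini-Hochberg adjustment over the 7638 genes tested. The log2 fold change of Crym was -0.36 (SE 0.20, 95% interval -0.80 to 0.09, adjusted p = 0.855 in edgeR). That of Gprc5d was -0.75 (SE 0.31, interval -1.44 to -0.07, adjusted p = 0.684 in edgeR). That of Pthlh was -0.87 (SE 0.22, interval -1.35 to -0.38, adjusted p = 0.395 in edgeR). By unadjusted p the 3 stood at places 943, 376 and 43 of 7638.

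No gene passed in this comparison (0% of those tested), 502 had an unadjusted p under 0.05, and the smallest adjusted p was 0.0806. Under DESeq2, an alternative count test, 74 of 7786 genes with an adjusted p passed (0.95%), 16 higher and 58 lower. Pthlh was among the lower ones, with a log2 fold change of -0.85 and an adjusted p of 0.0422 in DESeq2. Model 03 bears on the Pthlh value: without it the difference was -1.06, with an adjusted p of 0.0511 in edgeR. Which values led to the choice of Pthlh is not recorded, so its place in this comparison is not independent evidence.

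**Figure D2:**
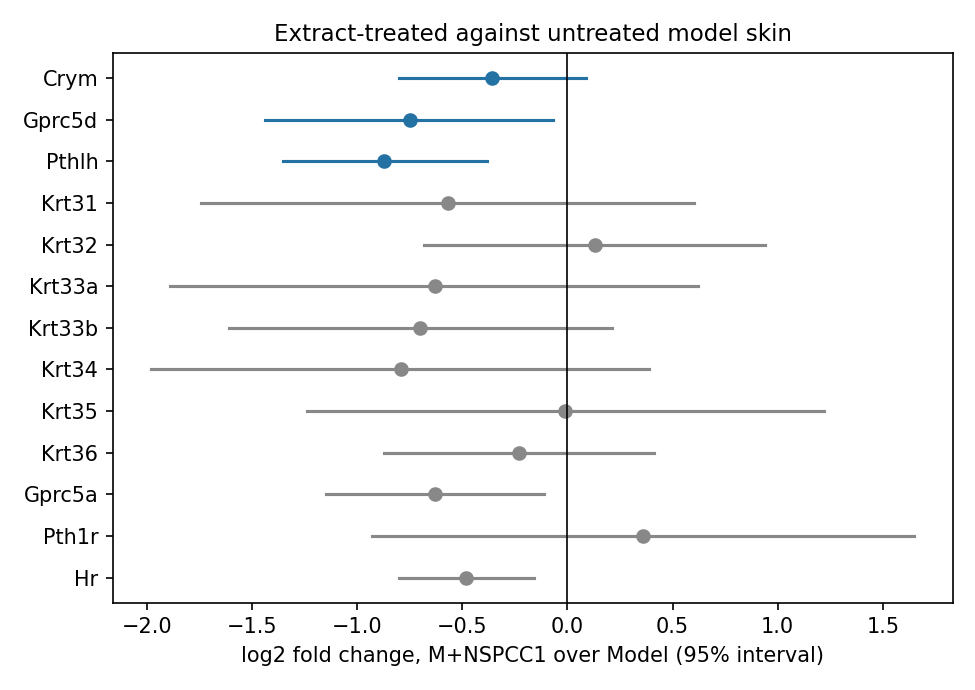
Log2 fold change of M+NSPCC1 over Model from the edgeR fit (horizontal axis) with its 95% interval for the 3 members (blue) and for the 7 hair keratins, Gprc5a, Pth1r and Hr (grey). The intervals are not adjusted for the number of genes; those of Gprc5d (-1.44 to -0.07), Pthlh (-1.35 to -0.38), Gprc5a and Hr lie below 0, and no gene in the plot passed the adjusted test.

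Like the members, the type I hair keratins were low in Ctrl and high in every library of the ageing model. Their summed level was 7.98 to 27.3 CPM in Ctrl, 6333 to 14376 CPM in Model and 4299 to 8840 CPM in M+NSPCC1. The Model and M+NSPCC1 ranges of this sum overlap, unlike those of Gprc5d. The log2 fold change of Model over Ctrl ran from 4.42 (Krt36) to 12.16 (Krt33b) with a median of 10.55, beside a median of 0.255 over all genes tested, and is a description because the keratins were named with the members. For Krt31, Krt33a, Krt33b, Krt34 and Krt35 the Ctrl counts lie mostly in Ctrl 02, and without it their log2 fold changes were 14.60, 14.41, 17.08, 16.92 and 12.18. In M+NSPCC1 against Model the 7 values ran from -0.79 (Krt34) to 0.13 (Krt32) with a median of -0.57. None of the 7 passed in edgeR and 6 were below 0, but the sign of Krt32 and of Krt35 (-0.01) turned under other settings. Hair keratins are close in sequence, so the division of reads among them is uncertain.

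Across the 8 libraries of the ageing model, the members were higher where the hair keratins were higher. The 6 relations were computed on log2 CPM with exact two-sided permutation tests, adjusted over the 6. They were chosen with earlier results known, so their p-values describe these libraries and are not independent evidence. These p-values also do not say whether a relation is particular to the genes named. Ranks of single keratins among other genes are given below. The shuffling took no account of group, so a difference between Model and M+NSPCC1 can add to a relation. Crym followed the mean of the 7 keratins with Pearson's r = 0.904 (exact permutation p = 0.000868, adjusted 0.00335) and Spearman's rho = 0.952 (exact p = 0.00114, adjusted 0.00342). For Gprc5d, r was 0.882 (exact p = 0.00823, adjusted 0.00988) and rho 0.81 (exact p = 0.0218, adjusted 0.0218). For Pthlh, r was 0.701 (exact p = 0.037, adjusted 0.037) and rho 0.881 (exact p = 0.00724, adjusted 0.0145). The keratins thus ranked the libraries much as Crym did, with Model 02 highest and M+NSPCC1 01 lowest.

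Among the members, Crym and Gprc5d had r = 0.943 (exact permutation p = 0.00112, adjusted 0.00335) and rho = 0.833 (exact p = 0.0154, adjusted 0.0185). Crym and Pthlh had r = 0.766 (exact permutation p = 0.00481, adjusted 0.00962) and rho = 0.952 (exact p = 0.00114, adjusted 0.00342). Gprc5d and Pthlh had r = 0.792 (exact permutation p = 0.00667, adjusted 0.00988) and rho = 0.857 (exact p = 0.0107, adjusted 0.0161). Crym and Gprc5d were thus the pair with the highest r. No r was taken over all 12 libraries, because Ctrl stands apart.

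These relations rest on few libraries. Without the 2 farthest from the median of the measure on the x axis, no adjusted p stayed under 0.05: the r with the keratins was then 0.807 for Crym, 0.396 for Gprc5d and 0.567 for Pthlh (without Model 02 and M+NSPCC1 01, n = 6), with exact adjusted p of 0.192, 0.438 and 0.288. Within Model or M+NSPCC1 alone there are too few libraries for an r. The relations were also taken with each library as its deviation from its own group mean. For these, unlike above, libraries were shuffled only within their group. The r with the keratins was then 0.893 for Crym, 0.945 for Gprc5d and 0.664 for Pthlh, the last with an exact permutation adjusted p of 0.123. Between members it was 0.94 for Crym with Gprc5d, 0.611 for Crym with Pthlh and 0.489 for Gprc5d with Pthlh, and the last no longer passed (exact permutation adjusted p = 0.123). Of the rho values so centred, only those of Crym and Gprc5d with the keratins passed; the exact adjusted p was 0.203 for Pthlh with the keratins, 0.0556 for Crym with Gprc5d and 0.121 for the 2 other pairs. Single libraries also moved adjusted p-values past 0.05: r of Gprc5d with the keratins was 0.828 without Model 02 and 0.751 without M+NSPCC1 01, and that of Pthlh with the keratins was 0.593 without Model 02, 0.718 without Model 04, 0.655 without M+NSPCC1 01 and 0.709 without M+NSPCC1 04. Crym with Pthlh had 0.716 without Model 02 and 0.723 without Model 04, and Gprc5d with Pthlh 0.725 without Model 02. The Spearman calls were lost more often: for Crym with Gprc5d, Gprc5d with the keratins and Gprc5d with Pthlh the rank correlation missed the threshold without any 1 of Model 01, Model 02, Model 04 and M+NSPCC1 01. The exact permutation adjusted p was then 0.0663 to 0.0795, 0.0576 to 0.0881 and 0.0512 to 0.072. For Pthlh with the keratins it missed without M+NSPCC1 01 (0.0683).

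**Figure D3:**
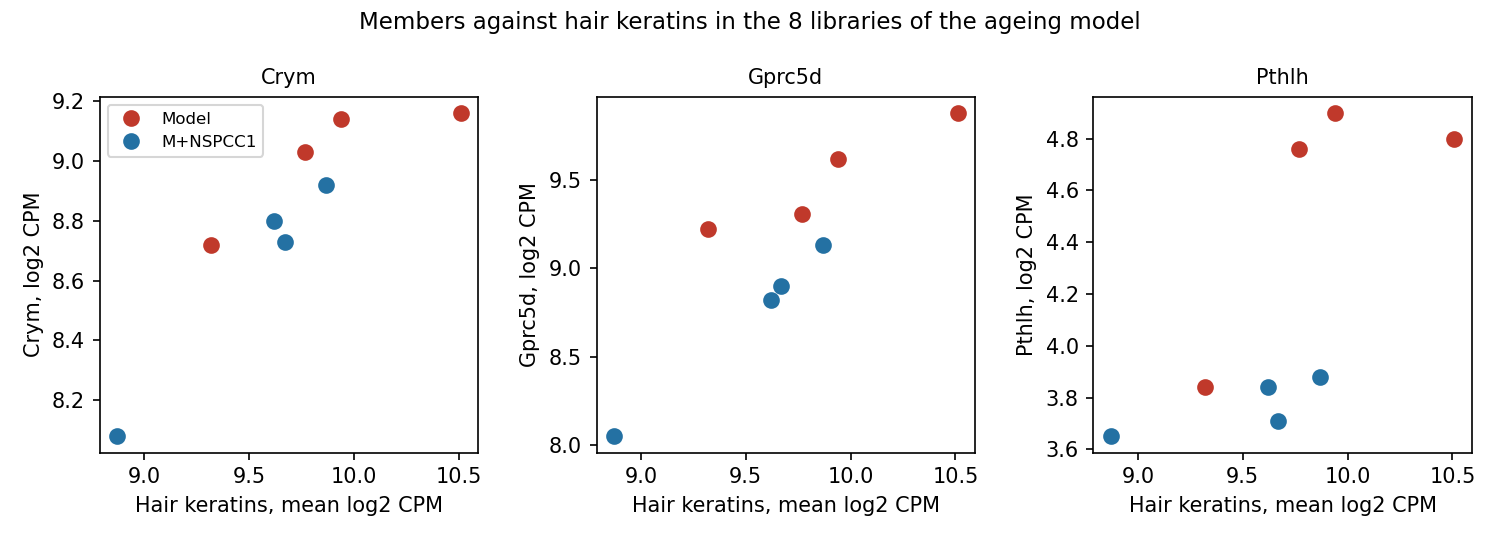
Log2 CPM of Crym, Gprc5d and Pthlh (vertical axes) against the mean log2 CPM of the 7 hair keratins (horizontal axis) in the 4 Model (red) and 4 M+NSPCC1 (blue) libraries; each point is a library and the axes do not start at 0. In each group the library with the most keratin is also the highest for Crym and Gprc5d, while for Pthlh 3 Model libraries stand above the other 5 points.

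The keratins did not all track the members equally. The r of Crym with single keratins ran from 0.425 (Krt32) to 0.942 (Krt33a), that of Gprc5d from 0.359 (Krt32) to 0.991 (Krt34) and that of Pthlh from 0.0791 (Krt32) to 0.814 (Krt34). Krt32, a keratin of the hair cuticle, was the least like each member of these keratins. Ranked by r among 6016 genes, the keratins stood from place 26 (Krt33a) to 1468 (Krt32) for Crym. For Gprc5d the places ran from 2 (Krt34) to 1528 (Krt32), and for Pthlh from 197 (Krt34) to 3026 (Krt32). Many other genes thus followed Pthlh more closely than any of these keratins did. The keratin mean was not ranked, so whether its relation to the members is particular to them was not tested. With 8 genes of the inner root sheath, the sleeve around the growing shaft, r ran from 0.845 to 0.985 for Crym, 0.701 to 0.963 for Gprc5d and 0.552 to 0.788 for Pthlh.

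The genes most like each member over the 8 libraries, among 6016 with a mean of at least 10 CPM, differed from member to member. For Crym they were Zfp185 (r = 0.987), Tchh (0.985), which encodes trichohyalin of the inner root sheath, Arg1 (0.984), the urea cycle arginase, and Krt75 (0.984), the companion layer keratin. For Gprc5d they were Krt86 (0.993) and Krt34 (0.991), both hair shaft keratins, and Krtap7-1 (0.988) and Krtap9-3 (0.986), keratin-associated proteins of the shaft. For Pthlh they were Stbd1 (0.963), a glycogen-binding protein, Prkch (0.961), a protein kinase C of differentiating keratinocytes, Usp6nl (0.957) and Yod1 (0.955), a deubiquitinase. None of the 4 nearest to Pthlh is a keratin. These r values were picked as the highest of many, are over libraries that share depth and group, and carry no test.

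Scaling the members to the hair keratins shows how far their levels went with them; this measure was chosen after the data had been seen. Per 1000 estimated counts of the 7 keratins, Gprc5d had 72.9, 65.7, 94 and 75 counts in Model 01 to 04 and 61.5, 61.2, 63.4 and 61 in M+NSPCC1 01 to 04. All Model libraries lie above all M+NSPCC1 libraries. The mean log2 difference of M+NSPCC1 from Model was -0.30, with an exact two-sided permutation p of 0.0286, the smallest that 4 against 4 libraries can give, and 0.0857 after adjustment over the 3 members. For Crym the difference was 0.10 (exact permutation p = 0.657, adjusted 0.657), from 55 ± 11.3 in Model and 58 ± 4.13 in M+NSPCC1 (SD, n = 4 each). For Pthlh it was -0.33 (exact permutation p = 0.229, adjusted 0.343), from 2.52 ± 0.538 and 2.02 ± 0.586 (SD, n = 4 each). Ctrl, with 74 to 247 keratin counts per library, gave 356 ± 143 for Crym, 293 ± 130 for Pthlh and 25.3 ± 23 for Gprc5d (SD, n = 4 each).

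Of the genes around PTHrP signalling, the receptor went the other way from its ligand. Pth1r had 72, 86.7, 78.3 and 81 CPM in Ctrl 01 to 04. It had 3.12, 13.5, 47 and 7.36 CPM in Model 01 to 04, and 26, 25.4, 22.9 and 16.7 CPM in M+NSPCC1 01 to 04. All 8 libraries of the ageing model lie below all Ctrl libraries, and Model 03 stands well above the other Model libraries. Pth1r fell by 2.17 on the log2 scale in Model against Ctrl (SE 0.60, adjusted p = 0.00504 in edgeR). Without Model 03 the value was -3.31. Model 03 was at an end of its group in the summed CPM of every marker list. It was highest for dermal fibroblast (10208, the other Model libraries 4041 to 6313), skeletal muscle (13760) and suprabasal epidermis markers (2770). It was lowest for the hair keratins (6333), inner root sheath (37971) and melanocyte markers (913). The part of this in the Pth1r and Pthlh values was not tested. In M+NSPCC1 against Model the value of Pth1r was 0.36 (SE 0.59, adjusted p = 0.988 in edgeR). That value turns on the Model libraries: it was 1.5 without Model 03 (adjusted p = 0.155 in edgeR) and 0.01 without Model 01.

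**Figure D4:**
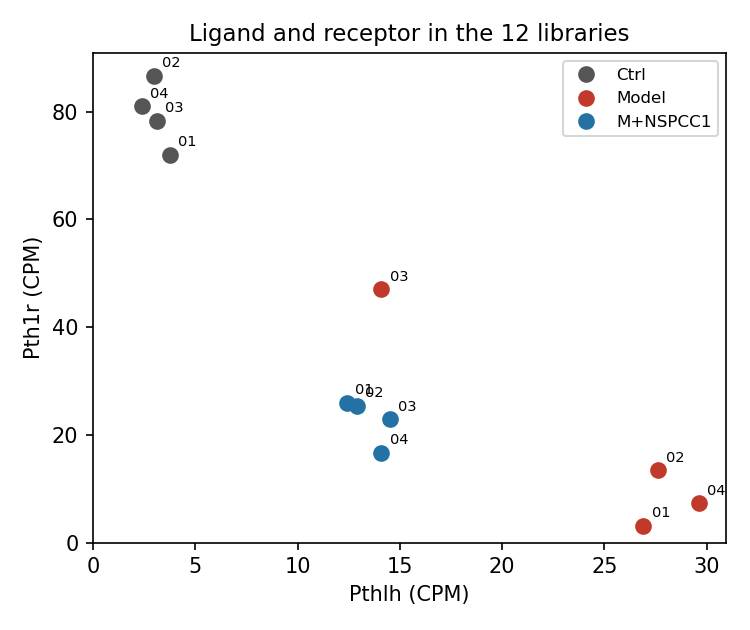
CPM of Pth1r (vertical axis) against CPM of Pthlh (horizontal axis) in the 12 libraries, coloured by group and marked with the replicate number; both axes start at 0. Ctrl libraries have 2.37 to 3.76 CPM of Pthlh and 72 to 86.7 CPM of Pth1r, and Model 03 lies apart from the other Model libraries.

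Against Ctrl, 90.5% of the 7638 genes tested passed in Model, 49.1% higher and 41.4% lower, so a passing gene is the rule in these tables. The gene lists that follow were chosen with earlier results of these data known, so their counts are not independent evidence. Of 24 listed genes of PTHrP signalling, 12 were in the tables and tested: 10 fell, 1 rose and 1 did not pass, with a median log2 fold change of -1.07 beside 0.255 over all genes. Those that fell include Gnas, the stimulatory G protein (-1.17, SE 0.11), Plcb1, a phospholipase C (-1.70, SE 0.21), and Adcy6, an adenylate cyclase (-0.98, SE 0.12). Prkacb, a catalytic subunit of protein kinase A, fell by more (-2.15, SE 0.35). The smallest falls were those of Prkaca, the other catalytic subunit listed (-0.54, SE 0.07), Prkar2a (-0.53, SE 0.06) and Grk2 (-0.52, SE 0.08). Plcb3 rose by 0.43 (SE 0.09), and Prkar1a, a regulatory subunit of the kinase, had 0.10 (SE 0.06) and passed only with limma on the FPKM scales, where 2 rose. The scaling matters for small values: the median over all genes was 0.255 with TMM and 0.083 with DESeq2's size factors.

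Of 23 listed genes of the GPRC5 family and retinoid signalling, 15 were tested: 6 rose, 8 fell and 1 did not pass, with a median of -0.79. Beside this, 49.1% of all genes tested passed higher and 41.4% lower. Within the family, Gprc5a, which lies 21282 bases from Gprc5d, rose from 2.72 ± 1.18 CPM in Ctrl to 32.5 ± 6.42 CPM in Model (SD, n = 4 each), a log2 fold change of 3.57 (SE 0.27). Gprc5b fell (-1.04, SE 0.17), as did Gprc5c (-2.10, SE 0.41). Among retinoid genes Stra6, the retinol uptake receptor (4.66, SE 0.62), Aldh1a3, which makes retinoic acid (1.98, SE 0.25), and the receptor Rarg (0.45, SE 0.08) rose. The receptor Rarb (-3.77, SE 0.70), the enzyme Aldh1a1 (-1.95, SE 0.33) and the carrier Crabp1 (-0.79, SE 0.22) fell.

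Of 19 listed genes of thyroid hormone handling, 8 were tested: 2 rose, 4 fell and 2 did not pass, with a median of -0.17. The shares over all genes tested were 49.1% higher and 41.4% lower. With limma on either FPKM scale 4 of the list rose. Dio3, the deiodinase that inactivates thyroid hormone, rose (6.22, SE 0.60), as did Hr, the corepressor hairless (1.32, SE 0.15). The receptor Thra (-0.57, SE 0.08) and the transporter Slc16a10 (-0.78, SE 0.16) fell, together with the lipogenic target genes Thrsp (-2.88, SE 0.37) and Me1 (-2.77, SE 0.27). Ncor1 (0.23, SE 0.14) and Med1 (0.30, SE 0.13), both cofactors, did not pass in edgeR and were the added 2 on the FPKM scales.

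Of 11 listed transcription factors and matrix signals of the hair shaft, 10 were tested and all 10 rose in Model against Ctrl, with a median of 5.38. Over all genes tested, 49.1% passed higher. This list was chosen with earlier results of these data known, so its count is a description and not independent evidence. The genes that rose include Lef1, the Wnt-responsive factor (5.19, SE 0.34), and Hoxc13 (5.88, SE 0.31) and Foxn1 (5.86, SE 0.40), regulators of hair keratin genes. Msx2 (6.74, SE 0.34), Dlx3 (5.56, SE 0.25) and the secreted signal Shh (5.89, SE 0.26) rose too. The others, Msx1 (2.82, SE 0.21), Foxq1 (2.69, SE 0.26), Ovol1 (2.44, SE 0.14) and Wnt10b (2.23, SE 0.44), rose less. In M+NSPCC1 against Model no member of the 4 lists passed in edgeR. The list medians there were -0.10 for the hair shaft factors, 0.04 for PTHrP signalling, -0.08 for the GPRC5 and retinoid genes and -0.17 for thyroid hormone handling, beside 0.006 over all genes. Gprc5a had -0.63 (adjusted p = 0.674 in edgeR) and Hr -0.48 (adjusted p = 0.549 in edgeR). Shh went the other way, with 0.60 (SE 0.18, adjusted p = 0.548 in edgeR). Without Model 03 the value of Hr was -0.29.

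**Figure D5:**
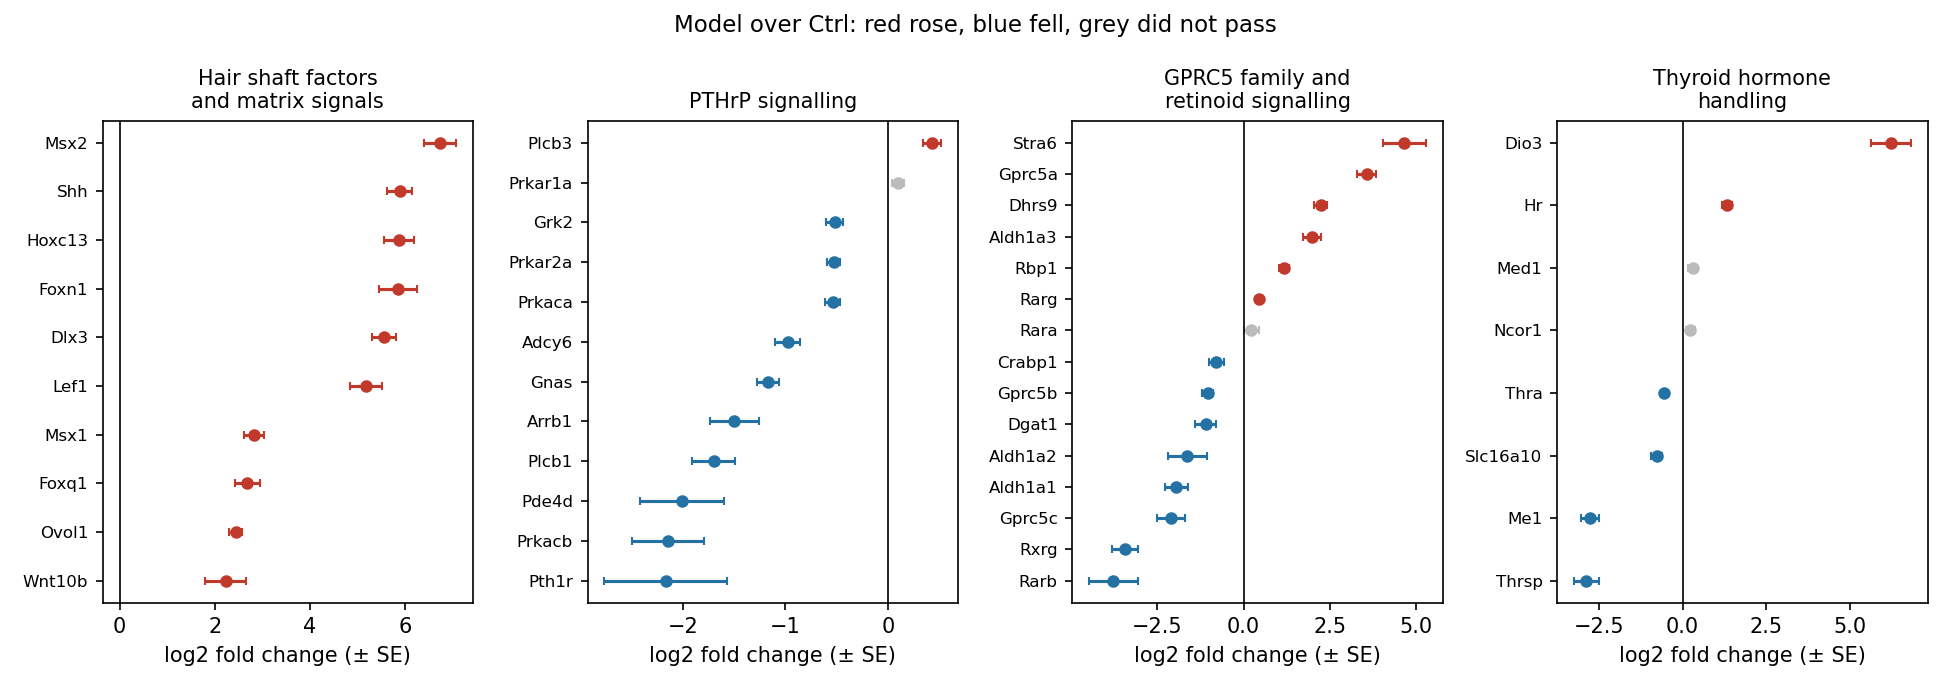
Log2 fold change of Model over Ctrl (horizontal axes, each with its own range) ± SE from the edgeR fit for the tested genes of 4 lists; red genes rose, blue fell and grey did not pass at an adjusted p under 0.05. All 10 hair shaft factors rose, and 10 of 12 PTHrP signalling genes fell. Of all genes tested, 49.1% passed higher and 41.4% lower, and the lists were chosen with earlier results known.

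The neighbours of the members that the deposited tables hold moved in both directions, where 90.5% of all tested genes passed. In Model over Ctrl, Gprc5a rose (above), as did Tmem159, 65393 bases from Crym (log2 fold change 0.58, adjusted p = 0.000802 in edgeR). Ddx47, 82215 bases from Gprc5d, rose as well (0.32, adjusted p = 0.00484 in edgeR). Anks4b, 2664 bases from Crym, had a log2 fold change of 7.54 in Model over Ctrl (adjusted p = 7.89e-06 in edgeR). Hebp1, 19236 bases from Gprc5d on the side away from Gprc5a, fell (-1.46, adjusted p = 8.95e-06 in edgeR), and Ccdc91, 211858 bases from Pthlh, fell as well (-0.55, adjusted p = 0.000417 in edgeR).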

How the data were processed

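RNA of 12 mouse skin libraries, 4 per group by the sample titles, was extracted with TRIzol and made into messenger RNA libraries, per the labels' protocols. The authors deposited estimated counts and FPKM values per transcript and library. HISAT2 2.2.1, RSEM 1.3.1, DESeq2 1.34.0 and mm10 are named, with no roles, in the submitters' processing notes. The tables hold 10720 transcripts of 7902 genes; the sources used here do not give the rule that chose these. Values were summed by gene ID and the sums of counts rounded; 14 symbols turned into dates were restored, and 7881 gene IDs matched RefSeq.

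The members and lists were chosen with earlier results of these data known. Tests used edgeR 4.0.16 in R 4.3.3 (quasi-likelihood, TMM, filterByExpr, all 12 libraries in 1 fit, no covariate), with Benjamini-Hochberg adjusted p under 0.05 over 7638 genes, checked on simulated data. Positive log2 fold changes are higher in the first-named group. Alternatives were DESeq2 1.42.0, other scalings and filters, limma 3.58.1 on log2(FPKM + 1) and log2(FPKM + 0.1) with a mean FPKM of at least 0.5, a replicate block and leaving out each library. Named genes were the members, the 7 keratins, set genes of each list and the 4 genes with the highest r to each member. Plcb1, Adcy6, Prkacb, Prkaca, Prkar2a, Grk2, Stra6, Aldh1a3, Rarb, Aldh1a1, Msx1, Foxq1, Ovol1, Wnt10b and the neighbours were added after their values were seen. A further gene, left out of the thyroid list, is not reported here. The bound for a count of 0 is 3 counts in 1 library and covers counting error only.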

Additional observations from a re-analysis of the deposited data

Results flagged for a closer look

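In 81 groups of 4 libraries, 12 values stood apart from the other 3 libraries of their group by Dixon's 95% criterion. Chance meets it in about 1 of 20 groups of independent, normally spread values. That rate does not hold where the other 3 libraries are at 0, as for Krt33b, Krt34 and Thrb, or for keratins that vary together. In Ctrl 02 the flagged keratins were Krt31 (3.42 CPM), Krt33a (4.86 CPM), Krt33b (1.44 CPM), Krt34 (3.98 CPM) and Krt35 (6.41 CPM), where the other Ctrl libraries had at most 0.553 CPM. Gprc5d was also highest in Ctrl 02, at 1.33 CPM, but did not meet the criterion. In Model 02, Krt32 had 715 CPM against 270 to 342 in the others.

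In Model 03, Crabp1 had 26 CPM against 16.6 to 17.9 and Slc16a10 had 17.3 CPM against 28.6 to 28.8. In M+NSPCC1 01, Lef1 (141 CPM against 200 to 211) and Dlx3 (588 CPM against 798 to 838) were low. Thrb, the thyroid hormone receptor beta, was listed at 28.8 CPM in Ctrl 02 and 21 CPM in Model 03 and at 0 in the other 10 libraries, and was not tested.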

How the results depend on the processing

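Of 1180 alternative values, those of the members kept their direction in all 3 comparisons of groups under the 20 settings tried. On log2(FPKM + 1), Gprc5d was 8.47 and Pthlh 2.48 in Model over Ctrl, and 7.73 and 1.77 in M+NSPCC1 over Ctrl. With 1 library left out, Gprc5d ran from 10.28 to 12.20 and from 9.52 to 11.45 in these comparisons. In M+NSPCC1 against Model, Pthlh was -0.85 in DESeq2 (adjusted p = 0.0422), and over its leave-one-out fits the adjusted p ran from 0.0511 to 0.878 in edgeR. The count of genes that passed there was 16 higher and 58 lower in DESeq2, 1 and 1 with only the 8 libraries compared, and 0 to 1 higher and 0 to 3 lower with 1 library left out (above 0 without Model 03 or M+NSPCC1 01). On both FPKM scales, 2 PTHrP signalling and 4 thyroid genes rose.

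Krt35 in M+NSPCC1 against Model turned to 0.01 with DESeq2's size factors and in DESeq2, 0.11 with the replicate block and 0.08 on both FPKM scales, and ran from -0.23 to 0.23 with 1 library left out (0.01 without Model 01 or Model 04, 0.16 without M+NSPCC1 01). Krt32 ran from -0.03 to 0.57 (-0.01 without Model 03, -0.02 without Model 04). The cause was not tested. Same-numbered libraries of Model and M+NSPCC1 deviated together with correlations of 0.116, -0.235, -0.236 and 0.104, so the numbers were not taken to pair them; with the replicate block the members were at -0.39 (Crym), -0.77 (Gprc5d) and -0.83 (Pthlh), and 3 thyroid genes rose in Model against Ctrl in place of 2.

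Taken as deviations from the group means, r was 0.664 for Pthlh with the keratins and 0.489 for Gprc5d with Pthlh, and neither passed. Without the 2 farthest libraries, r was 0.807 (Crym), 0.396 (Gprc5d) and 0.567 (Pthlh) with the keratins, 0.796 for Crym with Gprc5d, 0.611 for Crym with Pthlh and 0.578 for Gprc5d with Pthlh. With 1 library left out, r ran from 0.83 to 0.948, 0.751 to 0.959 and 0.593 to 0.762 with the keratins, and for the 3 pairs from 0.858 to 0.962, 0.716 to 0.934 and 0.725 to 0.847. Crym per keratin count ran from -0.05 to 0.20. The smallest Ctrl counts limit the folds of Gprc5d and the keratins.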
